A study of Mus musculus with 3 samples.

Results

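The histone genes of the replication-dependent gene clusters were examined in single CD45-positive cells of the mouse thalamus after interleukin-33 (IL-33). Members were all genes of the count table whose symbol begins with Hist1h, Hist2h, Hist3h or Hist4h, which gave 63 of 20586 genes. They comprised 6 linker (H1) genes and 57 core genes, of which 16 were H2A, 16 H2B, 12 H3 and 13 H4 genes. By locus on the GRCm38 build, 51 lie in Hist1 at chr13:21715763-23764406, 9 in Hist2 at chr3:96219865-96270132, 2 in Hist3 at chr11:58948920-58956830 and 1 in Hist4 at chr6:136801553-136804415.

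Core histones form the protein spool of the nucleosome, and linker H1 histones bind the DNA where it enters and leaves that spool. Most of these genes are transcribed in bulk while a cell copies its DNA, and their mRNAs end in a stem-loop instead of a poly(A) tail. Some members also give polyadenylated transcripts that extend past the stem-loop, and non-dividing cells use these. Adult microglia, the resident macrophages of the brain, are mostly non-dividing.

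There were 3 libraries, 1 per group, each made 4 h after injection into the cerebral ventricles. The cKO+IL33 library came from Cx3cr1-creER heterozygotes with ST2 Flox homozygous alleles that received IL-33. ST2, encoded by Il1rl1, is the receptor chain for IL-33. The WT+IL33 library came from Cx3cr1-creER heterozygotes without the floxed alleles that received IL-33, and the WT+Vehicle library from such heterozygotes that received vehicle. All 3 thus carried the inducible recombinase, whose promoter is that of the fractalkine receptor, active in microglia and other macrophages. No cKO library given vehicle was analysed here. The labels do not state how many animals were pooled, and they give the molecule as polyA RNA. With 1 library per group no difference between libraries has a replicate check, so the intervals below cover counting error only and no p-value is given for them.

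Poly(A) capture needs a tail that an mRNA ending at the stem-loop lacks, so the sequence of the stem-loop is shown first. It was found in the annotated transcripts of 43 of the 63 members in 6 forms, with the 2 arms of the stem in capitals and the loop in lower case, written as DNA from 5′ to 3′.
Form in 25 members, among them Hist1h1e, Hist1h1c, Hist1h1d, Hist3h2a and Hist1h2ap: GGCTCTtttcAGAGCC
Form in 7 H4 members, among them Hist1h4d: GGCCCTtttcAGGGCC
Form in 6 members, among them Hist1h3c and Hist1h3e: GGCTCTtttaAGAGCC
Form in Hist2h4 and Hist1h4i: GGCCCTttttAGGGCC
Form in Hist1h4j and Hist1h4b: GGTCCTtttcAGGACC
Form in Hist2h2ac: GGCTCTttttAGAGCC
The transcript of Hist1h1b, an H1 gene, was not among those in which it was found. The annotated Hist1h1e transcript ran on for 1153 bases after the stem-loop, that of Hist1h1c for 840, that of Hist3h2a for 1643 and that of Hist1h4d for 770, whereas that of Hist1h2ap ran on for 3 bases.

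The promoters of Hist1h1b and Hist1h1e are shown because these linker genes had the largest histone counts and shared the direction of their differences between libraries. Each run holds 250 bases before and 50 after the RefSeq start, on the minus strand of GRCm38.p6, at chr13:21780576-21780875 for Hist1h1b and chr13:23622509-23622808 for Hist1h1e. Capitals mark 4 motifs, searched on both strands with overlaps allowed, whose letters are spelled out with their counts after the sequences.
Hist1h1b: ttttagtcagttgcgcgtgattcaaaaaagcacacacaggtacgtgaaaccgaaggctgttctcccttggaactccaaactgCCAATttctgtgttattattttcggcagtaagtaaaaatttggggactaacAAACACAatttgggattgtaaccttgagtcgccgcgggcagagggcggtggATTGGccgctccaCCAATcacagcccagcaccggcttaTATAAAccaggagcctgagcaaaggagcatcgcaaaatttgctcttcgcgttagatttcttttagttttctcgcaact
Hist1h1e: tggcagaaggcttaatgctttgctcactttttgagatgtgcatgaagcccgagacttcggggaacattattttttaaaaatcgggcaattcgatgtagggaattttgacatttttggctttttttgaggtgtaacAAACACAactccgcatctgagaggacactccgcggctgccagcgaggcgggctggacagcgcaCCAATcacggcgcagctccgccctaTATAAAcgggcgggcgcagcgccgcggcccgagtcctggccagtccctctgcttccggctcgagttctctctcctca
Promoters of 58 of the 63 members were matched by symbol or synonym. AAACACA, the H1 box, was present in 5 of 6 linker promoters and in 7.18% of all 32851 promoters in the table. ATTTGCAT, the octamer, was present in 6 of 16 H2A and 5 of 14 H2B promoters, in 0 of 6 linker promoters, and in 1.74% of all promoters. TATAAA was found in 56.9% of the members and 13.6% of all promoters, and CCAAT in 84.5% of the members and 37.4% of all promoters. By family, CCAAT was present in 3 of 12 H4 promoters and in every matched H1, H2A, H2B and H3 promoter. These matches describe the letters in the window and were not tested as binding sites.

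The libraries held 2687 cells and 17480958 UMIs (unique molecular identifiers, 1 per captured molecule) in cKO+IL33, 2202 cells and 12127214 UMIs in WT+IL33, and 2709 cells and 18269042 UMIs in WT+Vehicle. Histone genes took 9897, 2109 and 15869 of these. At least 3 of 8 microglial markers were present in 7593 of 7598 cells. Border macrophage markers (7 genes) summed to 93.3 CPM (UMIs divided by all UMIs of the same cells, on the usual CPM scale) in cKO+IL33, 14.3 in WT+IL33 (1 gene at 0) and 78.8 in WT+Vehicle. Microglial markers summed to 20532, 13090 and 19247 CPM, monocyte markers to 3.78, 7.17 and 2.52 CPM (2 of 4 genes at 0 in each library), and neutrophil and T-cell markers to less than 1 CPM in every library. Il1rl1 had 224 UMIs in cKO+IL33, 70 in WT+IL33 and 212 in WT+Vehicle. The labels do not say whether the counted tags of Il1rl1 lie in the deleted part, so this count does not check the genotype, and the names of the libraries are those of the labels. The deposited sex calls were female for 2648 of the cKO+IL33 cells, female for 1107 and male for 1095 of the WT+IL33 cells, and male for 2701 of the WT+Vehicle cells. UMIs of Xist and of Y-linked genes stood together in 3 cells of cKO+IL33, 305 of WT+IL33 and 7 of WT+Vehicle, all female-called, and in WT+IL33 these had a median of 10780 UMIs, against 3951 over all its cells. Deposited cluster 4, the cluster with the highest histone level in each library, had 122 cells in cKO+IL33, 15 in WT+IL33 and 247 in WT+Vehicle. Cell barcodes shared between libraries numbered 2.

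The first comparison, WT+IL33 against WT+Vehicle, asks how histone RNA stood 4 h after IL-33 in mice with the intact receptor. Both classes were lower after IL-33, and the linker class by more. Linker genes summed to 55.7 CPM (51.6 to 60.1) in WT+IL33 and 509.6 CPM (499.3 to 520.1) in WT+Vehicle, 9.14-fold lower (95% interval 8.45 to 9.90). Core genes summed to 118 CPM (112 to 124) in WT+IL33 and 359 CPM (350.4 to 368) in WT+Vehicle, 3.04-fold lower (2.87 to 3.22). The linker share of all histone UMIs was accordingly 32.1% in WT+IL33 and 58.7% in WT+Vehicle. Within the core class the fold was not the same for each family. It was 5.78-fold lower for H3 and 3.41-fold lower for H2A, against 2.74-fold lower for H2B and 2.37-fold lower for H4.

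Of the 63 members, 11 reached a mean of 10 CPM over the 3 libraries, 4 linker and 7 core. At a fold of 2, 10 of these 11 were lower in WT+IL33 than in WT+Vehicle, where 9.3% of all 8385 genes at that level were, and 0 were higher. The median log2 ratio was -2.03 over the 11 and 0.04 over all genes. A gene can reach the mean through the library in which it is high, so these counts describe the 11 only. The other 52 members had between 1 and 430 UMIs over all libraries, with a highest mean of 8.44 CPM and 25 members under 1 CPM. Among the 61 members with a UMI in either of these libraries, 58 were lower in WT+IL33. A member with 0 UMIs in WT+IL33, where 17 of the 63 had none, counts as lower on 1 UMI in WT+Vehicle. No share over all genes stands beside this count, so it describes the members only.

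All 6 linker genes were lower in WT+IL33 than in WT+Vehicle. Hist1h1d, which encodes the H1.3 subtype, had 1.24 CPM in WT+IL33 and 22.8 CPM in WT+Vehicle, 18.4-fold lower (11.0 to 33.2). Hist1h1c, which encodes H1.2, had 19.6 and 83.0 CPM, 4.23-fold lower (3.69 to 4.87). Hist1h1a, which encodes H1.1 and is named here after its values were seen, had 9 UMIs in WT+IL33 and 206 in WT+Vehicle, 15.2-fold lower (7.85 to 33.7). The folds thus spread widely within the linker class, with Hist1h1c the least lowered of these. Hist1h1t, the linker gene of the testis, had 3 UMIs in cKO+IL33, 0 in WT+IL33 (a count that allows up to 3) and 11 in WT+Vehicle.

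The folds also ran widely among the core genes. Hist1h2ap, an H2A gene, had 2.06 CPM in WT+IL33 and 27.0 CPM in WT+Vehicle, 13.1-fold lower (8.78 to 20.5). Hist1h2ae, another H2A gene, had 2.64 and 23.0 CPM, 8.71-fold lower (6.08 to 12.9). Hist1h3c, an H3 gene below the minimum that is named after its values were seen, had 5 UMIs in WT+IL33 and 242 in WT+Vehicle. At the other end, Hist1h4d (H4) was 2.51-fold, Hist1h2bc (H2B) 2.54-fold, Hist2h2ac (H2A) 2.27-fold and Hist3h2a (H2A) 2.14-fold lower. Hist1h2be, an H2B gene, was the member that missed the fold of 2, at 9.15 CPM in WT+IL33 and 12.6 CPM in WT+Vehicle, 1.38-fold lower (1.09 to 1.74). H2A genes of the Hist1 locus have near-identical copies among which reads can be split, so their single-gene values are less certain than the class sums. Hist1h1e, a linker gene, overlaps Hist1h2be, a core gene, on the same strand, as Hist3h2a does Trim17. How reads divide there was not tested, and it bears on the class sums as well as on these genes.

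**Figure D1:**
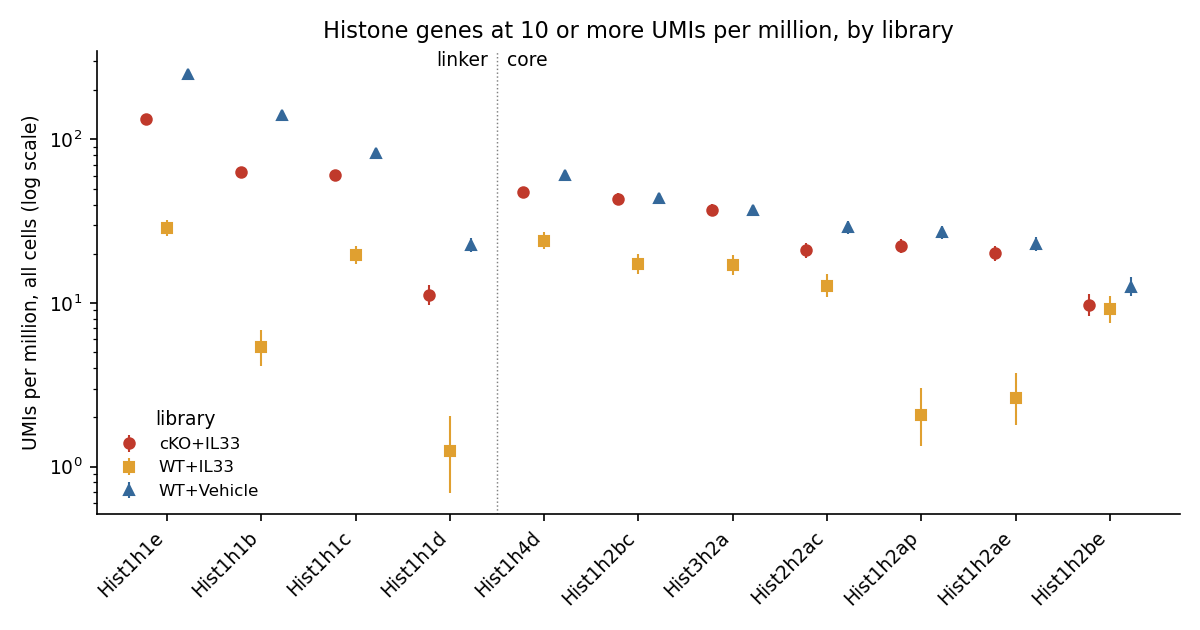
Level of each histone gene with a mean of at least 10 CPM in the 3 libraries, on a log axis of CPM with exact Poisson intervals. WT+IL33 points lie below both other libraries for the linker genes and for Hist1h2ap and Hist1h2ae, and close to them for Hist1h2be (9.72, 9.15 and 12.6 CPM in cKO+IL33, WT+IL33 and WT+Vehicle).

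The second comparison, cKO+IL33 against WT+IL33, asks what differed under IL-33 when the receptor alleles were floxed. It shares the WT+IL33 library with the first, so its values are given beside that one's and not as a separate line of evidence. Linker genes summed to 272 CPM (264 to 279.9) in cKO+IL33 and 55.7 CPM in WT+IL33, 4.88-fold higher (4.5 to 5.30). Core genes summed to 294 CPM (286 to 302) in cKO+IL33 and 118 CPM in WT+IL33, 2.49-fold higher (2.35 to 2.64). At a fold of 2, 8 of the 11 members were higher in cKO+IL33, where 10.2% of all genes were, with a median log2 ratio of 1.57 for the members and 0.0056 for all genes. Of the 61 members with a UMI in either library, 59 were higher in cKO+IL33, a count with the same limits as that of the first comparison.

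Hist1h2ap had 22.4 CPM in cKO+IL33 and 2.06 CPM in WT+IL33, 10.9-fold higher (7.26 to 17.0), and Hist1h1d had 11.2 and 1.24 CPM, 9.06-fold higher. Hist1h1c (60.4 and 19.6 CPM), Hist1h2bc (43.5 and 17.4 CPM) and Hist3h2a (37.1 and 17.2 CPM) were 3.08-fold, 2.50-fold and 2.16-fold higher. The 3 members that missed the fold of 2 were Hist1h4d, 1.97-fold higher, Hist2h2ac, 1.64-fold higher, and Hist1h2be, at a ratio of 1.06 (0.832 to 1.36).

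In the third comparison, cKO+IL33 against WT+Vehicle, genotype and agent both differed, and so did the sex of nearly all cells, which cannot be told apart. Linker genes stood at 272 CPM in cKO+IL33 and 509.6 CPM in WT+Vehicle, 1.87-fold lower (1.81 to 1.94). Core genes stood at 294 and 359 CPM, 1.22-fold lower (1.18 to 1.27). The linker share of histone UMIs was 48.1% in cKO+IL33 and 58.7% in WT+Vehicle. Hist1h1b, which encodes H1.5, with 63.0 CPM in cKO+IL33 and 140.2 CPM in WT+Vehicle, was 2.23-fold lower (2.07 to 2.39). Hist1h1d, with 11.2 and 22.8 CPM, was 2.03-fold lower. These were the 2 of 11 members past a fold of 2, where 0.286% of all genes were lower, and the median log2 ratio was -0.34 for the members and 0.06 for all genes. Hist1h2bc and Hist3h2a had ratios of 0.987 (0.892 to 1.09) and 1.01 (0.905 to 1.13) between the same libraries. Over all 63 members, 45 were lower in cKO+IL33, a description with no share over all genes beside it.

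The sums mix dividing and non-dividing cells, so the comparisons were repeated in the 1748, 1306 and 1490 cells of cKO+IL33, WT+IL33 and WT+Vehicle that were called G1 and lay outside cluster 4, a selection made after the data were seen. Both classes differed by less than over all cells, and the linker difference stayed the larger. Linker genes summed to 159 CPM (152 to 167) in cKO+IL33, 44.9 CPM (40.3 to 49.98) in WT+IL33 and 281 CPM (271 to 292) in WT+Vehicle. WT+IL33 was 6.26-fold lower than WT+Vehicle (5.59 to 7.03), cKO+IL33 was 3.54-fold higher than WT+IL33 (3.16 to 3.99), and cKO+IL33 was 1.77-fold lower than WT+Vehicle (1.66 to 1.87). Core genes summed to 171 CPM in cKO+IL33, 103 CPM in WT+IL33 and 177 CPM in WT+Vehicle. WT+IL33 was 1.71-fold lower than WT+Vehicle (1.57 to 1.87), cKO+IL33 was 1.66-fold higher than WT+IL33 (1.53 to 1.81), and cKO+IL33 stood at a ratio of 0.971 (0.910 to 1.04) to WT+Vehicle. The interval for the linker class lay apart from that for the core class in each of the 3 comparisons.

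Hist1h1e, which encodes H1.4, made up most of the linker UMIs of these G1 cells. It had 97.3 CPM in cKO+IL33, 24.8 CPM in WT+IL33 and 195 CPM in WT+Vehicle, which put WT+IL33 7.85-fold below WT+Vehicle (6.75 to 9.17) and cKO+IL33 2.0-fold below it (1.86 to 2.16). Hist1h1c had 53.6, 18.9 and 68.3 CPM, with WT+IL33 3.61-fold below WT+Vehicle (3.01 to 4.36). Hist1h1e thus kept a larger difference than Hist1h1c without the dividing cells, and was the one that also set cKO+IL33 apart from WT+Vehicle by a fold of 2. Hist1h1b had 28, 3 and 57 UMIs in the G1 cells of cKO+IL33, WT+IL33 and WT+Vehicle, and most of its UMIs therefore came from cells left out here. Hist3h2a had 37.0 CPM in cKO+IL33, 13.7 CPM in WT+IL33 and 39.6 CPM in WT+Vehicle, with WT+IL33 2.88-fold below WT+Vehicle (2.31 to 3.61). Hist2h2ac had 9.54, 10.2 and 10.4 CPM, at a ratio of 0.978 (0.718 to 1.33) for WT+IL33 against WT+Vehicle. Hist1h2be had 7.15, 9.91 and 8.65 CPM, at a ratio of 1.15 (0.828 to 1.58).

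In these G1 cells 6 members reached 10 CPM, and 3 of them, Hist1h1e, Hist1h1c and Hist3h2a, were at least 2-fold lower in WT+IL33 than in WT+Vehicle, where 9.07% of all genes were. In cKO+IL33 against WT+IL33, 4 of the 6 were at least 2-fold higher, where 10.3% of all genes were. In cKO+IL33 against WT+Vehicle 1 of the 6, Hist1h1e, was at least 2-fold lower, where 0.156% of all genes were.

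The linker difference was present in each deposited cluster outside cluster 4, as a description, since the clusters were formed on the same genes. In cluster 0 linker genes had 158 CPM in cKO+IL33 (1374 cells), 85.3 CPM in WT+IL33 (144 cells) and 263 CPM in WT+Vehicle (1327 cells). WT+IL33 was 3.08-fold lower than WT+Vehicle there (2.29 to 4.25), with 3.01-fold in cluster 2, 4.55-fold in cluster 3, 5.46-fold in cluster 1 and 7.24-fold in cluster 5. Core genes of cluster 0 had 179 CPM in cKO+IL33, 165 CPM in WT+IL33 and 179 CPM in WT+Vehicle, and the ratio of WT+IL33 to WT+Vehicle was 0.923 (0.732 to 1.15). The core interval also held 1 in clusters 2 and 3, while core genes were 1.92-fold lower in cluster 1 (1.21 to 2.90) and 2.42-fold lower in cluster 5 (1.64 to 3.68). In cluster 0, cKO+IL33 was 1.67-fold below WT+Vehicle for linker genes (1.56 to 1.79) and stood at 1.0 for core genes (0.933 to 1.08).

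Members did not move alike inside cluster 0. Hist1h1e had 97.6 CPM in cKO+IL33, 52.4 CPM in WT+IL33 and 181 CPM in WT+Vehicle, and WT+IL33 was 3.45-fold below WT+Vehicle (2.36 to 5.25). Hist3h2a had 37.5, 36.8 and 37.8 CPM, levels that their counting error does not separate. Hist1h2bc had 39.4 CPM in cKO+IL33, 48.5 CPM in WT+IL33 and 28.2 CPM in WT+Vehicle, and was thus higher in WT+IL33 than in WT+Vehicle by 1.72-fold (1.09 to 2.60), against its direction over all cells. Cluster 1 held 1815 of the 2202 WT+IL33 cells and few of either other library (35 and 20 cells). Within the WT+IL33 library, cluster 1 stood at 0.469 times the linker level of cluster 0 (0.343 to 0.656) and 0.610 times its core level (0.489 to 0.771). Hist1h2bc stood there at 0.300 times (0.195 to 0.477), Hist3h2a at 0.399 times (0.247 to 0.681) and Hist2h2ac at 0.977 times (0.436 to 2.72) its level in cluster 0.

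The same was computed among cells with the same deposited sex call, outside cluster 4. Among male-called cells, linker genes had 41.7 CPM in WT+IL33 and 282 CPM in WT+Vehicle, 6.77-fold lower (5.87 to 7.85), and core genes were 1.79-fold lower. Among female-called cells, linker genes were 3.45-fold higher in cKO+IL33 than in WT+IL33 (3.08 to 3.87) and core genes 1.63-fold higher. Of the 1107 female-called WT+IL33 cells, 305 held Xist and Y-linked UMIs together. Without such cells and with cluster 4 included, the female-called ratios were 4.36 (3.83 to 4.97) for linker and 2.43 (2.21 to 2.68) for core genes, against 4.90 and 2.52 with them. Hist1h2ap was 7.22-fold higher without them (4.08 to 14.1), on 12 UMIs in WT+IL33, and 12.4-fold higher with them. The folds within a sex therefore stood close to those of all cells outside cluster 4, which were 6.31-fold lower and 3.59-fold higher for linker genes. The part of the microglial and border macrophage markers, which were also lower in WT+IL33 than in the other libraries, was not tested.

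**Figure D2:**
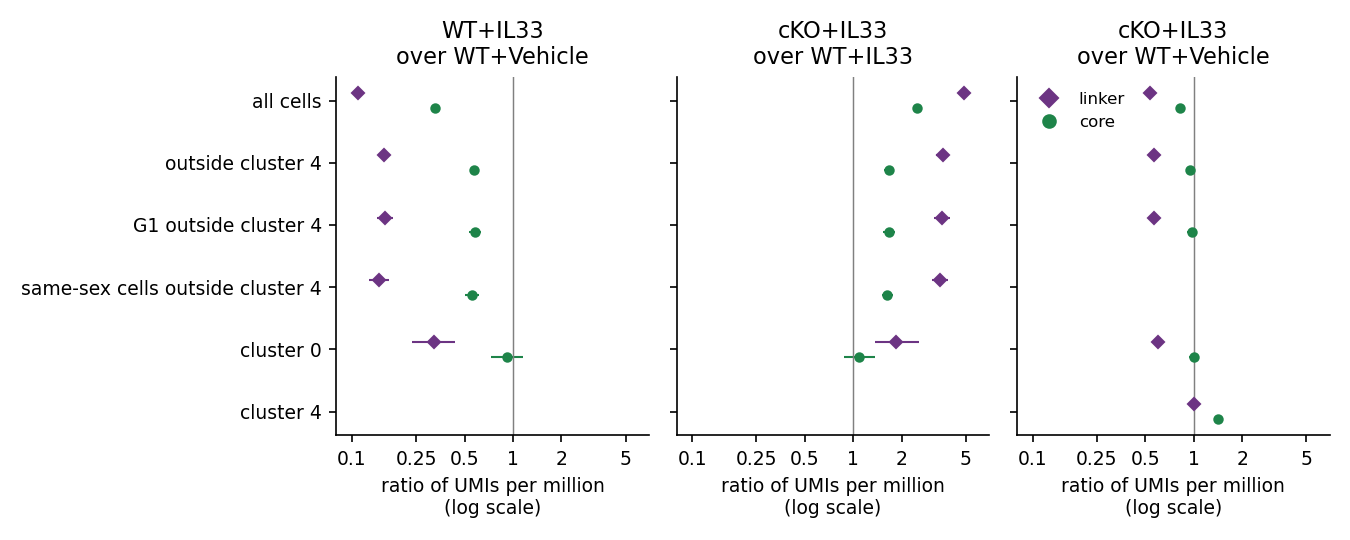
Ratio of linker (diamonds) and core (circles) levels in the 3 library comparisons, on a log axis with 95% exact intervals, for all cells and for subsets of cells. In WT+IL33 against WT+Vehicle the linker ratio stays below the core ratio in all subsets drawn, while in cluster 4, all phases together, linker genes of cKO+IL33 against WT+Vehicle stand at 1.01 and core genes at 1.41.

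Differences between deposited cell-cycle phases were tested over 9 sums (3 libraries by 3 phases) with edgeR's quasi-likelihood test, the library as a block and Benjamini-Hochberg adjustment over 10979 genes, of which 25 were histone genes. Phase calls come from the same cells, and the test measures the spread over 3 libraries. In cells called G2M against cells called G1, 23 of the 25 histone genes rose and 0 fell (0 fell at an unadjusted p under 0.05, and 0 with DESeq2), where 5.9% of all genes rose. With no replicate block edgeR called 0 of 25 here, with 19 at an unadjusted p under 0.05, and with cells thinned to 3000 UMIs it called 13 of 16 tested. In cells called S against G1, 2 rose, Hist1h1b and Hist1h3c, where 1% of all genes rose, and 0 fell, also at an unadjusted p under 0.05 and with DESeq2. In S against G2M, 23 of 25 were lower in S, where 3.33% of all genes were lower. The fit with no replicate block called 0 in both of these comparisons, and with thinned cells 1 gene was called in S over G1 and 13 in S over G2M. The counts with no block and with thinned cells have no share over all genes beside them and describe the members only.

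Hist1h1b had 2.37 CPM in G1, 9.30 CPM in S and 584 CPM in G2M cells of cKO+IL33. In WT+IL33 it had 0.396, 2.88 and 37.2 CPM in G1, S and G2M cells, and in WT+Vehicle 5.89, 43.5 and 779 CPM. The order was the same in every library, with WT+IL33 lowest throughout. In WT+IL33 the S and G2M values rest on 9 and 53 UMIs, all from 2 S-called and 11 G2M-called cells of cluster 4. Outside that cluster, WT+IL33 had 3 Hist1h1b UMIs in G1 cells and 0 in S and G2M cells, so the order rests on few cells there. The log2 change of Hist1h1b was 7.37 (SE 0.21, edgeR adjusted p = 1.6e-14) in G2M over G1 and 2.75 (SE 0.32, edgeR adjusted p = 3.2e-05) in S over G1. Hist1h3c rose by a log2 change of 8.48 (SE 0.36) in G2M and 3.13 (SE 0.71, edgeR adjusted p = 0.0367) in S. Its change in S rests on few UMIs and mostly on WT+Vehicle. S cells held 2, 0 and 16 UMIs and G1 cells 1, 0 and 3 in cKO+IL33, WT+IL33 and WT+Vehicle. Of the 16, 14 lay in cluster 4. Among H2A genes, Hist1h2ab (6.28), Hist1h2ae (5.54) and Hist1h2ap (5.25) had the next log2 changes in G2M over G1. Among the other linker genes, Hist1h1a changed by 4.86 and Hist1h1d by 3.34.

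Other members changed less between phases. Hist1h1e had 98.0, 109 and 419 CPM in G1, S and G2M cells of cKO+IL33, 24.9, 27.8 and 51.2 CPM in WT+IL33, and 196, 193 and 554 CPM in WT+Vehicle. Its log2 change in G2M over G1 was 1.68 (SE 0.11, edgeR adjusted p = 1.1e-09). Hist1h1c (1.13), Hist1h2bc (1.14) and Hist1h2be (1.51) rose by a similar amount, Hist1h4d by 2.23 and Hist2h2ac by 3.13. Hist2h2be, an H2B gene (log2 change 1.19, edgeR adjusted p = 0.107), and Hist3h2a (0.05, SE 0.17, edgeR adjusted p = 0.919) were the 2 that did not pass. Hist3h2a had 37.0, 33.3 and 46.2 CPM in G1, S and G2M cells of cKO+IL33, 13.9, 23.0 and 21.8 CPM in WT+IL33, and 39.3, 36.2 and 29.3 CPM in WT+Vehicle, an order that differed between libraries.

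**Figure D3:**
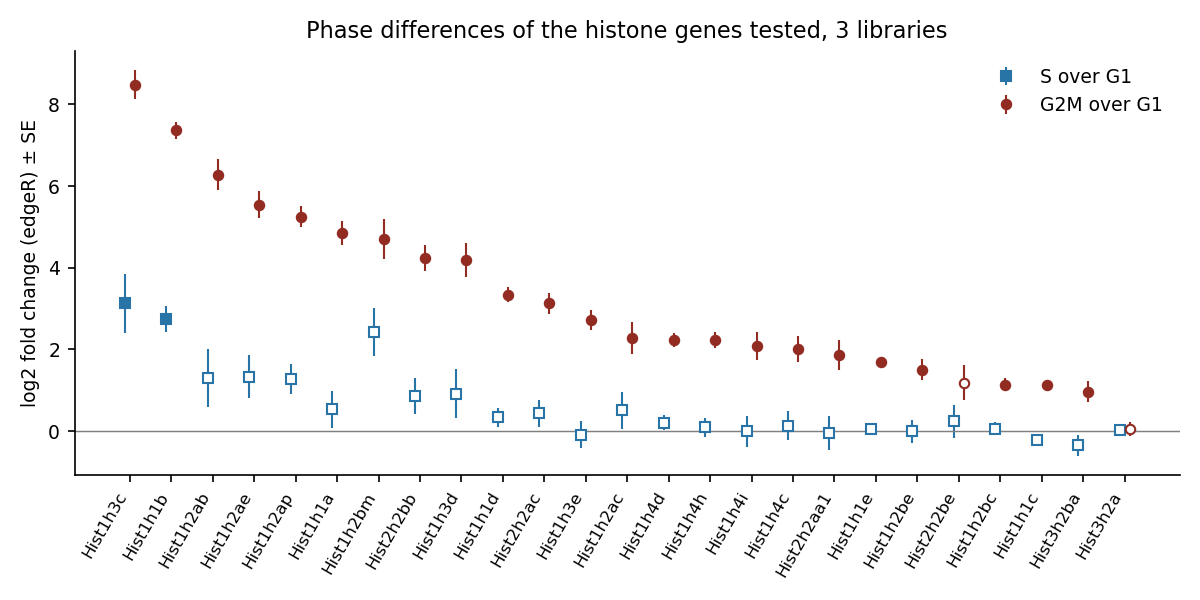
Log2 fold change with its standard error for the 25 histone genes tested, S over G1 (squares) and G2M over G1 (circles), filled where edgeR's adjusted p was under 0.05. In G2M over G1, 23 of 25 are filled and the points run between 0.05 (Hist3h2a) and 8.48 (Hist1h3c), and in S over G1 Hist1h1b and Hist1h3c are filled.

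Most of these phase calls were not made without cluster 4. With its cells left out, 17 histone genes remained to be tested, and edgeR called 1 in G2M over G1, 0 in S over G1 and 0 in S over G2M, with 6, 2 and 3 at an unadjusted p under 0.05. Calls over all genes fell as well, to 0.25% higher in G2M over G1, 0.537% higher in S over G1 and 0.352% lower in S over G2M. The 1 called was Hist1h1b, with a log2 change of 1.84 (SE 0.33, edgeR adjusted p = 0.00017) in G2M over G1. Outside cluster 4, linker levels in G1, S and G2M cells were 159, 159.6 and 175 CPM in cKO+IL33, 44.9, 47.8 and 36.3 CPM in WT+IL33, and 281, 268 and 329.9 CPM in WT+Vehicle. For linker genes the difference between libraries was larger than that between phases in these cells. Core levels in the same order of phases were 171, 186 and 213 CPM in cKO+IL33, 103, 118 and 103 CPM in WT+IL33, and 177, 189 and 234 CPM in WT+Vehicle. Leaving out WT+IL33, which had 15 cells in cluster 4, gave 39 called genes of 42 tested in G2M over G1 and 5 in S over G1. Leaving out cKO+IL33 or WT+Vehicle gave 1 each in S over G1 and 15 each in S over G2M. No share over all genes stands beside the counts with a library left out, so they describe the members only.

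**Figure D4:**
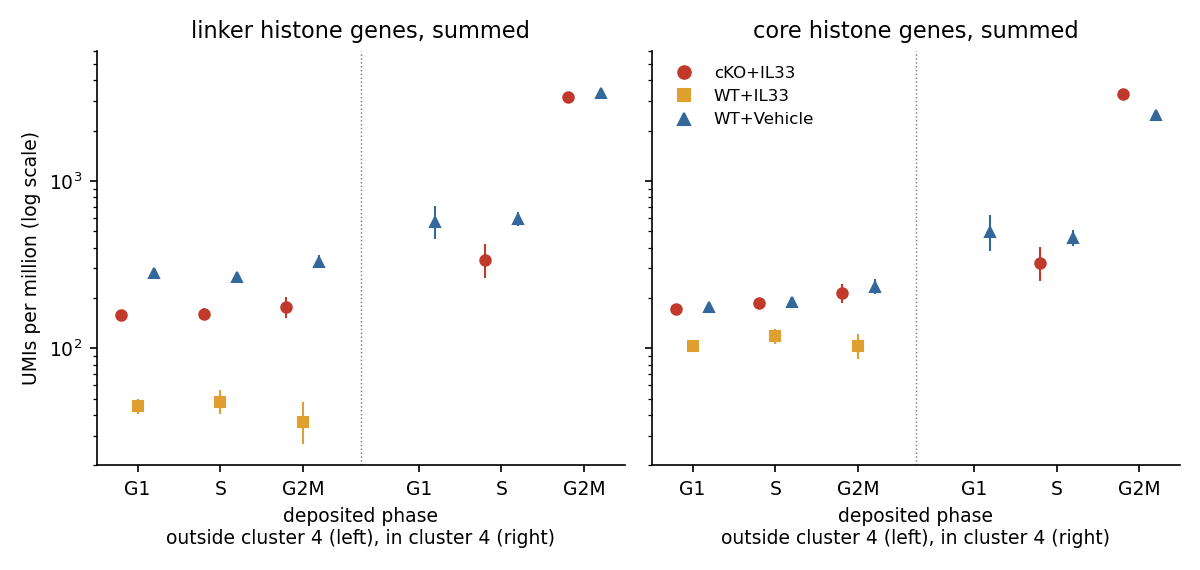
Linker and core levels in CPM (log axis, exact Poisson intervals) by deposited phase, outside cluster 4 and in it, with groups of fewer than 20 cells not drawn. Outside cluster 4 the libraries differ by more than the phases do for linker genes (159 to 175 CPM in cKO+IL33, 36.3 to 47.8 CPM in WT+IL33 and 268 to 329.9 CPM in WT+Vehicle), while in cluster 4 G2M cells linker genes reach 3172 CPM in cKO+IL33 and 3348 CPM in WT+Vehicle.

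Cluster 4 itself is defined in part by these genes, so its levels are a description. It held 43.6% of histone UMIs in cKO+IL33, 13.5% in WT+IL33 and 52.5% in WT+Vehicle, with 5.42%, 0.77% and 11.8% of all UMIs. Its S-called cells had 336 linker CPM in cKO+IL33 (32 cells) and 595 CPM in WT+Vehicle (89 cells), and its G2M-called cells 3172 CPM (76 cells) and 3348 CPM (136 cells). Histone levels were thus higher in G2M-called than in S-called cells of the cluster in both libraries. Single cells ranged widely. The S-called cells had a median per-cell linker level of 209.7 CPM in cKO+IL33 and 335 CPM in WT+Vehicle. A median over cells is not the measure of the summed levels. Those were 336 and 595 CPM in these S-called cells, above 272 and 509.6 CPM over all cells of the same libraries. Linker levels of G2M-called cells in cluster 4 ran between 0 and 12346 CPM with a median of 1973 in cKO+IL33, and between 0 and 12281 CPM with a median of 2571 in WT+Vehicle. The 15 WT+IL33 cells of cluster 4 held 138 linker and 146 core UMIs and were too few for a level.

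Within cluster 4, the linker levels of cKO+IL33 and WT+Vehicle were not separated by counting error, at a ratio of 1.01 (0.956 to 1.06), while core genes were 1.41-fold higher in cKO+IL33 (1.34 to 1.49). In its G2M-called cells alone the ratios were 0.948 (0.898 to 1.0) for linker and 1.33 (1.26 to 1.41) for core genes. In its S-called cells both classes were lower in cKO+IL33, at ratios of 0.564 (0.436 to 0.721) for linker and 0.705 (0.539 to 0.911) for core genes. The higher core level of cKO+IL33 was thus present in the summed UMIs of the G2M-called and not of the S-called cells. Per cell, the median core level of S-called cells was 198 CPM in cKO+IL33 and 166 CPM in WT+Vehicle. The highest cells had 1861 and 3970.5 CPM, so the lower sum of cKO+IL33 was not that of the median cell. H2A genes had the highest ratio of the families over the whole cluster, 1.63-fold higher in cKO+IL33 (1.5 to 1.76), against 1.19-fold for H2B, 1.23-fold for H3 and 1.36-fold for H4. Hist1h2ae had 327 CPM in cKO+IL33 and 168 CPM in WT+Vehicle, 1.95-fold higher (1.67 to 2.27), though its S-called cells held 1 UMI in cKO+IL33 and 26 in WT+Vehicle. Hist1h2ap had 343 and 195 CPM, 1.76-fold higher (1.52 to 2.04). Hist1h1b had 1112 and 1118 CPM, at a ratio of 0.994 (0.924 to 1.07). The ratio over the whole cluster thus mixed phases, since G2M-called cells were 76 of its 122 cells in cKO+IL33 and 136 of its 247 cells in WT+Vehicle. Sex and library differ together here, and their parts cannot be told apart.

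Members differed in the share of their UMIs, summed over the 3 libraries, that lay in cluster 4, which held 6.69% of all UMIs. It was 97.7% for Hist1h3c, 94.7% for Hist1h1b, 90.5% for Hist1h2ab, 85.0% for Hist1h2ae and 83.2% for Hist1h2ap. It was 37.3% for Hist1h4d, 30.1% for Hist1h1e, 23.3% for Hist1h1c, 22.5% for Hist1h2bc and 6.74% for Hist3h2a. In cKO+IL33, WT+IL33 and WT+Vehicle the share was 87.8%, 34.4% and 86.4% for Hist1h2ae, and 95.7%, 95.4% and 94.3% for Hist1h1b. Linker genes lay at both ends, so this split did not follow the division into linker and core. In cluster 4, Hist1h1e had 0.631 UMIs per Hist1h1b UMI in cKO+IL33, 0.806 in WT+IL33 and 0.610 in WT+Vehicle. Outside it, Hist1h1e had 35.3, 99.7 and 21.4 UMIs per Hist1h1b UMI in cKO+IL33, WT+IL33 and WT+Vehicle, the WT+IL33 value resting on 3 Hist1h1b UMIs. The proportion between these linker genes was thus not the same inside and outside the cluster.

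The split was set beside the annotated 3′ ends described above, with a boundary of 500 bases that was chosen after the values were seen. The 12 members whose transcript ran at least 500 bases past the stem-loop had a median of 31.1% of their UMIs in cluster 4 (lowest 6.74%, highest 92.1%). The 31 members with a shorter end had a median of 66.7% (lowest 21.1%, highest 100%). The 20 in which no stem-loop was found had a median of 74.6% (lowest 20.9%, highest 100%). Members with few UMIs, such as Hist1h4f (0.036 CPM, 100%), weigh as much as the others in these medians. The group in which none was found describes the annotation and does not show that the genes lack a stem-loop. Some of its annotated transcripts are short and may end before it, as in Hist1h2ak (393 bases), Hist1h2bn (381), Hist1h3i (411) and Hist1h4k (312). Others are longer, such as Hist1h2bc (1156) and Hist2h2be (2620). The ranges overlapped. Members named here after their values were seen ran against the medians, with Hist1h2bh (1214 bases, 92.1%) and Hist1h3d (752 bases, 75.8%) high among the long ends and Hist3h2ba (169 bases, 21.1%) low among the short. Mean levels differed as well, with medians of 6.59 CPM for the long, 1.54 CPM for the short and 0.697 CPM for the members in which none was found.

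**Figure D5:**
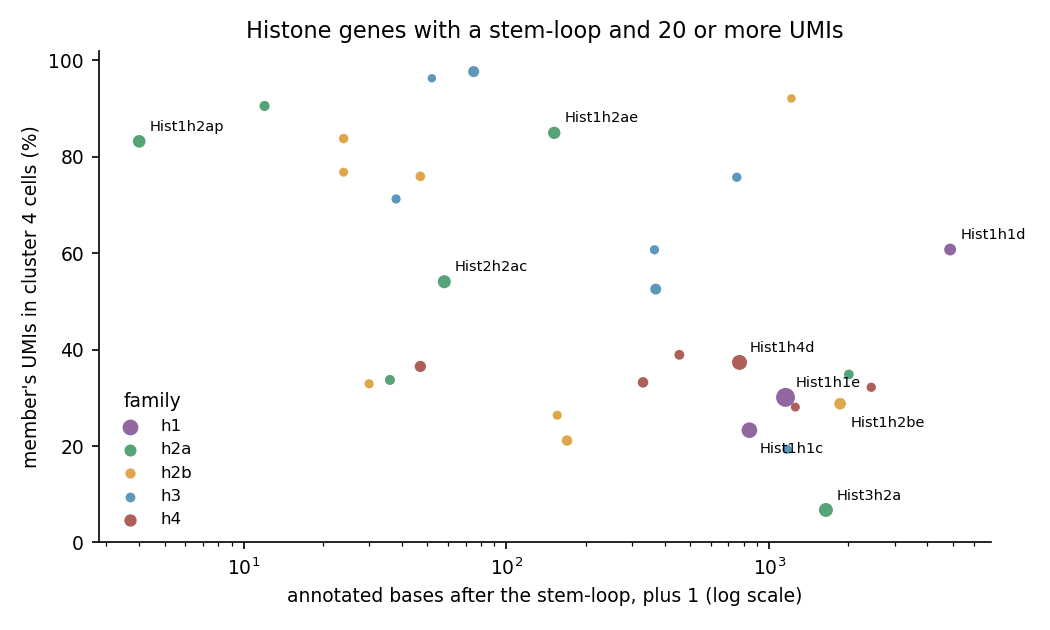
Annotated bases after the stem-loop (plus 1, log axis) against the percent of a member's UMIs that lay in cluster 4, for the 31 members with a stem-loop and at least 20 UMIs, with point size growing with mean level. Hist3h2a (6.74%), Hist1h1c (23.3%) and Hist1h1e (30.1%), with long ends, lie low, and Hist1h2ap (83.2%), with 3 bases, lies high, but Hist1h1d (4884 bases, 60.8%) lies high with a long end.

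The share of single cells with a UMI was compared next. After each cell was thinned to 3000 UMIs, leaving out 86, 353 and 77 shallower cells of cKO+IL33, WT+IL33 and WT+Vehicle, a linker UMI was present in 36.3% of cKO+IL33 cells (exact binomial interval 34.5 to 38.2). In WT+IL33 the share was 12.4% (10.9 to 14.0), and in WT+Vehicle 54.0% (52.0 to 55.9). A core UMI was present in 42.1%, 26.4% and 41.8% of cells. The linker share was thus highest in WT+Vehicle and lowest in WT+IL33, while the core shares of cKO+IL33 and WT+Vehicle were nearly equal. These intervals cover the sampling of cells within a library only. Without thinning, at median depths of 5119, 3951 and 5544 UMIs, the linker shares were 56.1%, 20.4% and 71.0% and the core shares 63.4%, 40.8% and 63.2%. In G1 cells outside cluster 4, thinned, Hist1h1e had a UMI in 23.2% of cKO+IL33, 5.68% of WT+IL33 and 40.6% of WT+Vehicle cells. No cell type that should lack histone RNA was present to give a background share.

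Genes that act with the histones were counted from lists of other functions. Of the 9 histone mRNA processing genes at 10 CPM or more, 0 were past a fold of 2 in any of the 3 comparisons, and their median log2 ratio was 0.31 in WT+IL33 against WT+Vehicle. The largest ratios were those of Cpsf3, the endonuclease that cuts the mRNA (43.9, 27.0 and 45.1 CPM in cKO+IL33, WT+IL33 and WT+Vehicle), and Casp8ap2, a factor of histone locus bodies (58.1, 78.8 and 50.4 CPM). Slbp, which binds the stem-loop and is named for that role, had 66.4, 74.5 and 57.1 CPM. Over all genes at that level, 9.3% were at least 2-fold lower and 10.6% at least 2-fold higher in WT+IL33 than in WT+Vehicle. With 9 genes a count of 0 is near these shares, and nothing particular to this list is read from it.

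Of 16 histone chaperone and import genes, 1 was at least 2-fold higher in WT+IL33 than in WT+Vehicle, where 10.6% of all genes were, and 0 were lower. This was Ipo4, an importin that carries histones into the nucleus, at 12.4 CPM in cKO+IL33, 38.1 CPM in WT+IL33 and 12.4 CPM in WT+Vehicle, 3.08-fold higher in WT+IL33 than in WT+Vehicle (2.62 to 3.63). Hat1, which acetylates new H4, had 19.7, 43.0 and 23.9 CPM. Both were named for their ratios. A count of 1 of 16 is near the share over all genes, and nothing particular to this list is read from it. Of 9 replacement histones, which are made outside DNA replication, 3 were at least 2-fold lower in WT+IL33 than in WT+Vehicle and 0 were higher. Over all genes 9.3% were lower and 10.6% higher by that fold. A listed gene can reach the mean through the library in which it is high, so this count describes the list only. H1f0, the linker histone of non-dividing cells, had 55.5 CPM in cKO+IL33, 18.4 CPM in WT+IL33 and 71.5 CPM in WT+Vehicle, 3.89-fold lower in WT+IL33 than in WT+Vehicle (3.37 to 4.5). Cenpa, the H3 variant of centromeres, had 19.6, 4.45 and 39.2 CPM, and H2afv had 74.1, 33.0 and 93.4 CPM. H3f3b, an H3.3 gene, had 1273, 1040 and 1755 CPM and did not reach a fold of 2.

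Most of the listed mitosis and DNA replication genes were also lower in WT+IL33. A gene can reach the mean through the library in which it is high, so the counts below describe these lists only. They were taken over all cells, of which 122, 15 and 247 lay in cluster 4 in cKO+IL33, WT+IL33 and WT+Vehicle. Over all genes at 10 CPM or more, 9.3% were at least 2-fold lower in WT+IL33 than in WT+Vehicle. The share at least 2-fold higher in cKO+IL33 than in WT+IL33 was 10.2%, and that at least 2-fold lower in cKO+IL33 than in WT+Vehicle was 0.286%. Of 11 mitosis genes, 11 were at least 2-fold lower in WT+IL33 than in WT+Vehicle and 11 at least 2-fold higher in cKO+IL33 than in WT+IL33, and 1, Top2a, was at least 2-fold lower in cKO+IL33 than in WT+Vehicle. Kif11, a spindle motor, had 10.8 CPM in cKO+IL33, 0.577 CPM in WT+IL33 and 19.1 CPM in WT+Vehicle. Of 10 DNA replication genes, 7 were at least 2-fold lower in WT+IL33 than in WT+Vehicle, 3 at least 2-fold higher in cKO+IL33 than in WT+IL33, and 2 at least 2-fold lower in cKO+IL33 than in WT+Vehicle. Clspn, a checkpoint mediator of the replication fork, had 8.41, 2.97 and 20.2 CPM, and Lig1, the replicative DNA ligase, 11.8, 5.36 and 28.9 CPM in cKO+IL33, WT+IL33 and WT+Vehicle.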

How the data were processed

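The values analysed are deposited UMI counts, not normalized (20586 genes, 7598 cells, 3 libraries). A deposited cell table gives library, sex call, cluster, phase and the authors' phase score values, which were not used. Cell Ranger 5.0, Seurat 4.0.1 and the build GRCm38 are named in the submitters' processing notes. The labels do not state the cell filters, any doublet removal or the genes behind the phase calls. Doublets were not called here.

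UMIs were summed per library, phase or cluster and divided by all UMIs to give CPM. Sums have exact Poisson and ratios exact conditional binomial intervals at 95%. They cover counting error only. Log2 medians used a pseudocount of 1 CPM. Groups under 20 cells are given as counts. Phases were compared with edgeR 4.0.16 (quasi-likelihood, library as block, threshold 0.05) in R 4.3.3, with DESeq2 1.42.0 as an alternative. The library is the same sample in all its phases, which is the source of the pairing.

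On simulated counts, 95.4% of the ratio intervals of 8176 genes covered the ratio set for WT+IL33 against WT+Vehicle. Those counts were Poisson draws of library sums, so the check covers the code and not the uneven spread of UMIs over cells. For G2M over G1, also on simulated counts, edgeR recovered 94.9% of 196 changed genes and called 7 of 10737 unchanged ones. Members with a mean of 10 CPM or more were named, with 5 more chosen for their role or after their values were seen, and single members elsewhere that ran against a pattern or did not pass a test, and at most 4 of each other list by ratio, with Slbp and Top2a beside them. The members and lists were chosen with earlier results of these data known. Stem-loops were searched in the GENCODE transcripts of GRCm38. Alternatives left out cells, clusters or libraries, thinned cells to 3000 UMIs, changed totals, minimum, pseudocount, size factors or filter, or dropped the block.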

Additional observations from a re-analysis of the deposited data

Results flagged for a closer look

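Hist3h2a went opposite ways between phases in 2 libraries. Its level in G2M-called cells was 1.57 times that in G1-called cells in WT+IL33, and 0.744 times in WT+Vehicle. The difference between the libraries was not tested. Hist3h2a overlaps Trim17 on the same strand, and how its counts divide between the genes was not tested.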

How the results depend on the processing

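All values here are log2 ratios unless named otherwise. The linker value of WT+IL33 against WT+Vehicle was -3.19. It was -2.66 in G1-called cells, -2.66 outside cluster 4, -2.65 in G1-called cells outside cluster 4 (a setting added after the data were seen, here and below), -3.04 with cells thinned to 3000 UMIs and -3.05 as the mean of per-cell fractions. The core value of -1.60 became -0.80, -0.80, -0.78, -1.40 and -1.40 under the same 5 settings, and -1.69 with totals without mitochondrial and ribosomal genes. For cKO+IL33 against WT+IL33, the linker value of 2.29 became 1.83 in G1-called cells, 1.84 outside cluster 4, 1.83 in G1-called cells outside it, 2.16 thinned and 2.50 with the phase mix of WT+Vehicle. The core value of 1.32 became 0.75, 0.73, 0.73, 1.22 and 1.56 under these, and 1.16 by per-cell fractions. For cKO+IL33 against WT+Vehicle, the linker value of -0.91 became -0.83, -0.81 and -0.82 in those 3 subsets and -0.61 with the phase mix. The core value of -0.29 became -0.058, -0.068 and -0.043 in those subsets, -0.18 thinned and -0.23 by per-cell fractions, and turned to 0.0092 with the phase mix. The linker values kept their direction in all these settings.

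Single genes turned in some subsets. In WT+IL33 against WT+Vehicle Hist1h2be was at 0.18 in G1-called cells, 0.019 outside cluster 4 and 0.20 in G1-called cells outside it. In cKO+IL33 against WT+IL33 Hist2h2ac was at -0.090, -0.23 and -0.093 in these subsets. In cKO+IL33 against WT+Vehicle Hist1h2ap was at 0.064 in G1-called cells, 0.28 with the phase mix and 0.056 in G1-called cells outside cluster 4. The cause was not tested.

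Counts of members past a fold of 2 follow the minimum by construction. Those given next have no share over all genes at the same minimum beside them and describe the members only. With no minimum (all members) and with 50 CPM, members lower in WT+IL33 than in WT+Vehicle numbered 48 and 3, those higher in cKO+IL33 than in WT+IL33 numbered 46 and 3, and those lower in cKO+IL33 than in WT+Vehicle numbered 20 and 1. With no minimum 1 was higher in WT+IL33 than in WT+Vehicle, 1 lower in cKO+IL33 than in WT+IL33, and 4 higher in cKO+IL33 than in WT+Vehicle. A pseudocount of 10 CPM gave medians of -1.38, 0.97 and -0.30 in the 3 comparisons. Unthinned linker shares of cells were 56.1% in cKO+IL33, 20.4% in WT+IL33 and 71.0% in WT+Vehicle, and core shares 63.4%, 40.8% and 63.2%. At 2500 UMIs linker shares were 33.1% in cKO+IL33 and 47.9% in WT+Vehicle, and core shares 37.0% in cKO+IL33, 24.0% in WT+IL33 and 38.4% in WT+Vehicle.

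For the phase tests, edgeR with no replicate block, in which the spread between libraries enters the error, called 0 histone genes in G2M over G1, 0 in S over G1 and 0 in S over G2M, with 19, 0 and 19 at an unadjusted p under 0.05. DESeq2 called 1 histone gene higher in S over G1, 21 in G2M over G1 and 19 lower in S over G2M. With no filter on low counts these were 5, 44 and 38 of 63 tested. With cells thinned to 3000 UMIs they were 1, 13 and 13, and outside cluster 4 0, 1 and 0. Leaving out each library in turn gave 1 to 5 in S over G1, 17 to 39 in G2M over G1 and 15 to 39 in S over G2M. Apart from the fit outside cluster 4, no share over all genes stands beside these counts, so they describe the members only. S over G1 changed sign for Hist3h2a without WT+IL33 (-0.13) and thinned (-0.13), Hist1h2be without WT+IL33 (0.19) and thinned (0.086), and Hist1h2bc without cKO+IL33 (-0.087). It also did so for Hist1h1d without WT+Vehicle (-0.11) and outside cluster 4 (-0.14), and for Hist1h4d thinned (-0.011). Over the libraries left out in turn, S over G1 ran between -0.087 and 0.24 for Hist1h2bc, -0.11 and 0.49 for Hist1h1d, and -0.26 and 0.19 for Hist1h2be, and G2M over G1 between -0.098 and 0.38 for Hist3h2a. G2M over G1 changed sign for Hist3h2a without WT+IL33 (-0.098), without cKO+IL33 (-0.078) and outside cluster 4 (-0.019), and for Hist1h2be outside cluster 4 (-0.096). S over G2M changed sign for Hist3h2a with DESeq2 size factors (0.0086), with no filter (0.011), without cKO+IL33 (0.26) and outside cluster 4 (0.089), and outside cluster 4 for Hist2h2ac (0.065) and Hist1h2ae (0.10). Of the other values of single genes, 430 held, 80 moved beyond their interval, 42 lost and 4 gained a call.

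The main limits are 1 library per group, sex that differs with the library, and polyadenylated capture of mRNAs that mostly lack a tail. WT+IL33 had the lowest depth, so its low members rest on few UMIs, 65 for Hist1h1b and 15 for Hist1h1d. Near-identical and overlapping genes limit single-gene values, and the overlap of Hist1h1e with Hist1h2be also bears on the class sums.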
